A study of Mus musculus with 34 samples.

Results

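The collagen genes were taken as every gene symbol in the deposited peak tables that begins with Col, a number, the letter a and a number. In all, 38 symbols matched, and 37 of them name collagen chains. The remaining match, Col4a3bp, codes for a ceramide transfer protein and is given apart. A start point, the position from which the authors measured the distance of each peak to its nearest gene, could be placed for 34 collagen genes, of 16001 genes placed in all. Col11a2, Col4a6 and Col5a2 were each nearest to too few peaks to be placed, and 7 collagen symbols of the RefSeq table, among them Col3a1, were not named as a nearest gene.

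Collagens are triple-helical proteins that build the extracellular matrix. Fibril-forming chains give bone, cartilage, skin and tendon their strength, network-forming chains build basement membranes, and other families decorate fibrils, form beaded filaments or span the cell membrane. In the embryo, collagen genes are chiefly a product of mesenchyme, cartilage precursors, endothelium and the meninges rather than of neurons, which is why face and limb were set against brain regions here.

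The proteins mapped were carried with a FLAG tag as knock-in alleles in mice of mixed 129/C57BL/6 background, and chromatin was precipitated with an antibody to FLAG and sequenced. SMARCA4, the motor subunit of the BAF complex that moves and evicts nucleosomes, was mapped in face, limb, forebrain, midbrain, hindbrain, neural tube and heart at embryonic day 11.5 and in embryonic stem cells (ESC). SMARCC2, a core subunit of the same complex, was mapped in face and hindbrain, the histone acetyltransferase EP300 in face and ESC, and NCOA1 and NCOA2, which assist nuclear receptors, in hindbrain. Control lists, which the labels call input controls, came from knock-in embryos of the same strain and day for EP300 face, SMARCC2 face, SMARCA4 midbrain, and SMARCC2, NCOA1 and NCOA2 hindbrain. Histone H3 marks were mapped in limb and forebrain of CD1 embryos of that day: H3K4me3 (active or poised starts), H3K27me3 (Polycomb repression), H3K4me1 (enhancers and flanks of starts), and in limb H3K27ac (active elements). All embryonic tissue was pooled from about 150 or 300 embryos, so each list is an average over every cell type of the tissue, and a weaker signal per cell and fewer cells with the signal cannot be told apart.

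Each list comes from 1 library, so no difference below has a replicate check and none has a p-value; the counts of collagen genes are set beside the same counts over all 16001 genes. The lists differ in length, from 35099 peaks for SMARCA4 face to 1513 for SMARCA4 midbrain, and in median peak width, from 158 bp for ESC to 3100 bp for forebrain, so a count is read against all genes in the same list and not against another list. The boundaries of the limb, forebrain and neural tube SMARCA4 peaks fall on multiples of 50 bp in 100% of peaks, against 0.0627% in face. The false discovery rate in the authors' deposited table is 100% at every SMARCA4 midbrain peak. Regional marker genes had a SMARCA4 peak of their own tissue within 100 kb at 7 of 7 placed for face, 4 of 5 for limb, 6 of 6 for forebrain, 4 of 5 for midbrain, 4 of 5 for hindbrain and 5 of 5 for heart. The shares over all genes are 98.1% for face, 64.4% for limb, 72.4% for forebrain, 20.2% for midbrain, 59.7% for hindbrain and 74.9% for heart, and lists of other tissues reached some of these markers as often (limb markers at 5 of 5 in face and in ESC, face markers at 6 of 7 in hindbrain). Neural tube and ESC markers were at 5 of 5 in their own lists within 100 kb, against 90.6% and 61.9% of all genes. Forebrain markers had a peak at 6 of 6 in face and neural tube, but at 1 of 6 in limb, hindbrain and heart. Midbrain markers had one at 5 of 5 in face and forebrain and at 0 of 5 in limb. Within 1 kb of the start, a peak of the own tissue lay at 4 of 7 face markers, against 74.1% of all genes. It lay at 2 of 5 in limb (26.8%), 4 of 6 in forebrain (30.8%) and 0 of 5 in midbrain (2.18%). Hindbrain had 0 of 5 (18.3%), neural tube 5 of 5 (54.8%), heart 3 of 5 (21.4%) and ESC 1 of 5 (6.77%). The check therefore separates some tissue labels and not others, and within 1 kb it gives no support to the midbrain and hindbrain labels.

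A pair of windows is used throughout, the start (a peak with any base within 1 kb of a start point) and the surroundings (within 100 kb). The promoters of the 4 collagen genes with SMARCA4 at the start in the most lists, 5 of 8 each, are shown first. They are the 250 bases before the start in RefSeq (GRCm38.p6), 5′ to 3′, with capitals marking matches on either strand to 3 textbook promoter motifs. These are the TATA box, searched as TATAAA; the CCAAT box, searched by those letters; and the GC box, searched as GGGCGG.
Col16a1, chr4:130047590-130047839, plus strand: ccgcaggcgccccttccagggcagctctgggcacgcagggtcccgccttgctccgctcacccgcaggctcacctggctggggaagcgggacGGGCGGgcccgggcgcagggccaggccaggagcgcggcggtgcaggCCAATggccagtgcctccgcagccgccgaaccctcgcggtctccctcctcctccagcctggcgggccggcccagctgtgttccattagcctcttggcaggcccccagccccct
Col18a1, chr10:77166531-77166780, minus strand: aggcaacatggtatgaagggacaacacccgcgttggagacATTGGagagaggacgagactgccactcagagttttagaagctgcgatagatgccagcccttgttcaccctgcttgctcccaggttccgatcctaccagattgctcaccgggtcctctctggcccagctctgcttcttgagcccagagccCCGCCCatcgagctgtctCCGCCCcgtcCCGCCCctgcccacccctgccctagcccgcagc
Col23a1, chr11:51289670-51289919, plus strand: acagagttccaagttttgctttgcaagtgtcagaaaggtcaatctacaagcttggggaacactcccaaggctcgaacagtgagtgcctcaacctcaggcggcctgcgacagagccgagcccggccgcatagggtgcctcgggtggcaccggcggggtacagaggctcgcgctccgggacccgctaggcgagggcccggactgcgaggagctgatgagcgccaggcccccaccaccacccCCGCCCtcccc
Col25a1, chr3:130180595-130180844, plus strand: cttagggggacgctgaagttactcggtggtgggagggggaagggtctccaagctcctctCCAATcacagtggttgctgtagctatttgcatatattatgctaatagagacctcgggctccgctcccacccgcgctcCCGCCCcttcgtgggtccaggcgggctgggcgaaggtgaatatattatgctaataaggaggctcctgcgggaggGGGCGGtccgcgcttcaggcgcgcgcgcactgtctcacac

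None of these 4 stretches holds TATAAA, and each holds GGGCGG at least once, Col18a1 3 times. Their GC content was 75.6% for Col16a1, 62.0% for Col18a1, 66.0% for Col23a1 and 60.4% for Col25a1. Of the 34 collagen genes 27 have a RefSeq promoter entry; GGGCGG stood in 15 of them (55.6%), against 32.7% of all 32851 entries. CCAAT stood in 10 (37.0%), against 33.8%, and TATAAA in 3 (11.1%), against 12.4%. A collagen gene counts where any of its entries matches, while the other share is per entry over all of RefSeq, not per placed gene. The median GC content was 60.4% over the collagen entries, against 52.4% over all entries, and its part in the GGGCGG share was not tested. A match of letters is not a bound site, and no match says only that the letters are not in this window.

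Set against all genes in the same list, collagen starts had SMARCA4 more often in forebrain and hindbrain, and about as often in face and limb. In face, 27 of 34 collagen starts (79.4%) had a peak, against 74.1% of all genes. In limb 9 did (26.5%), against 26.8% of all genes, so the limb count stood at the background. In forebrain 18 did (52.9%), against 30.8%, and in hindbrain 11 (32.4%), against 18.3%; these were the SMARCA4 lists in which collagen starts exceeded the background most. Neural tube had a peak at 17 (50.0%, against 54.8%) and heart at 5 (14.7%, against 21.4%). Both lay under the background, on counts too close to it to read as a difference. Midbrain and ESC had a peak at no collagen start, against 2.18% and 6.77% of all genes. SMARCC2 in face, the other subunit of the complex, lay at 15 collagen starts (44.1%, against 26.9%).

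Over the 8 SMARCA4 lists together, 28 collagen starts (82.4%) had a peak in at least 1 list, against 79.7% of all genes. The 6 without one were Col10a1 of growing cartilage, Col17a1 of hemidesmosomes, the fibril-associated Col20a1 and Col22a1, and Col6a1 and Col6a3 of beaded filaments.

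**Figure D1:**
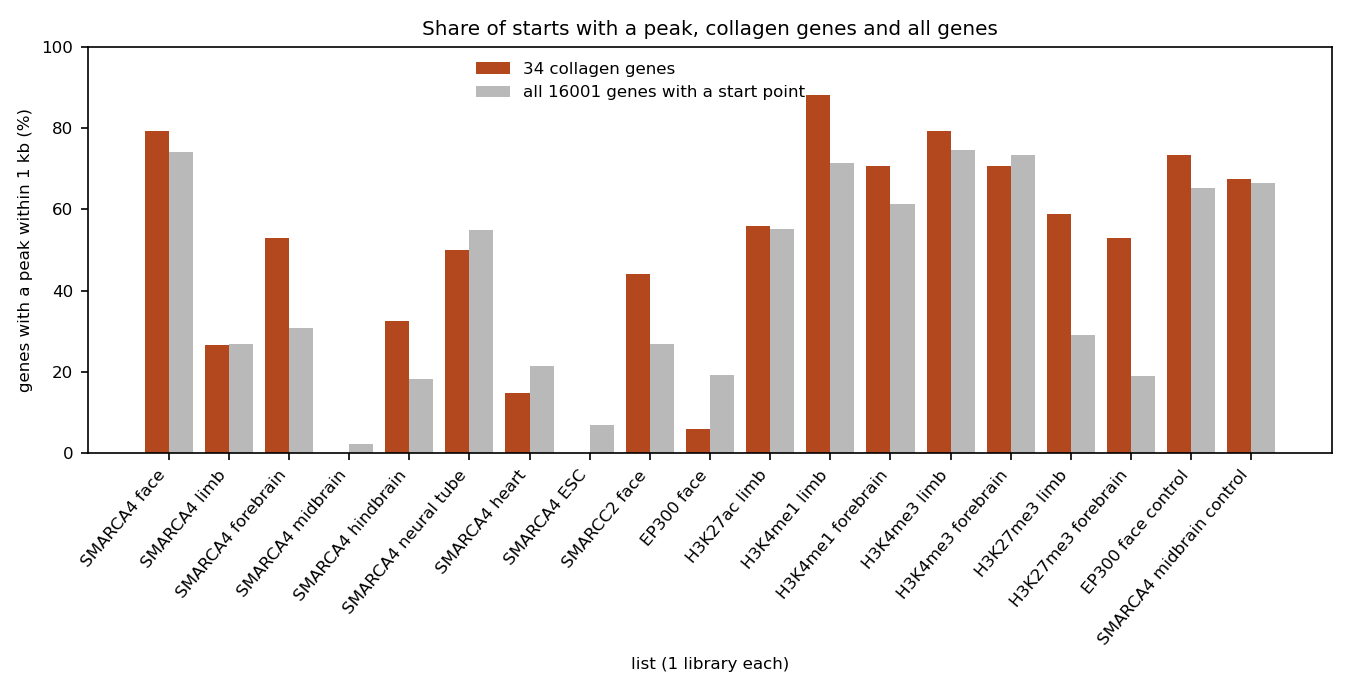
Share of starts with a peak within 1 kb (percent, vertical axis) in each list (horizontal axis, 1 library each), with the 34 collagen genes in the left bar and all 16001 genes in the right bar of each pair. The collagen bar is well above the bar of all genes for SMARCA4 forebrain (52.9% and 30.8%) and for H3K27me3 in limb (58.8% and 29.1%) and forebrain (52.9% and 18.9%), and level with it for SMARCA4 limb (26.5% and 26.8%).

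Control libraries also gave peaks at these starts, which bears on every SMARCA4 count at a start. The EP300 face control had a peak at 25 collagen starts (73.5%, against 65.3% of all genes) and the SMARCA4 midbrain control at 23 (67.6%, against 66.5%). Any of the 9 control or input lists had one at 28 (82.4%, against 75.8%). Col1a1 and Col11a1 were the only collagen starts with a SMARCA4 peak and no control or input peak. With every SMARCA4 peak that overlaps a control or input peak left out, a SMARCA4 peak remained at 8 collagen starts instead of 28. These were Col13a1, Col18a1 and Col1a1 in face (3, 8.82%, against 8.95% of all genes) and Col11a1 in forebrain (1, 2.94%, against 1.59%). Hindbrain kept Col14a1, Col19a1 and Col25a1 (3, 8.82%, against 3.21%), and heart kept Col14a1 and Col1a2 (2, 5.88%, against 9.49%). No limb or neural tube peak remained at a collagen start, against 1.01% and 2.85% of all genes. Controls of the SMARCA4 limb, forebrain, neural tube and heart libraries themselves were not analysed here, so the part of open chromatin in these peaks was not tested.

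Within its own list, a SMARCA4 face peak at a collagen start ranked high. Its rank had a median of 9.22% of the list (0 is best), against 27.2% over all starts with a face peak, and 26 of the 27 lay in the better-ranked 50%, against 78.5% of all. The best-ranked were those of the Col4a1 and Col4a2 start pair, at 0.880%. In limb 8 of 9 were in the better-ranked 50% (against 52.3%) and in forebrain 14 of 18 (against 55.0%). In hindbrain 5 of 11 were (against 59.9%) and in heart 1 of 5 (against 59.2%), with Col8a1, Col23a1 and Col5a1 among the best-ranked in hindbrain, at 11.9%, 14.8% and 15.2% of that list.

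**Figure D2:**
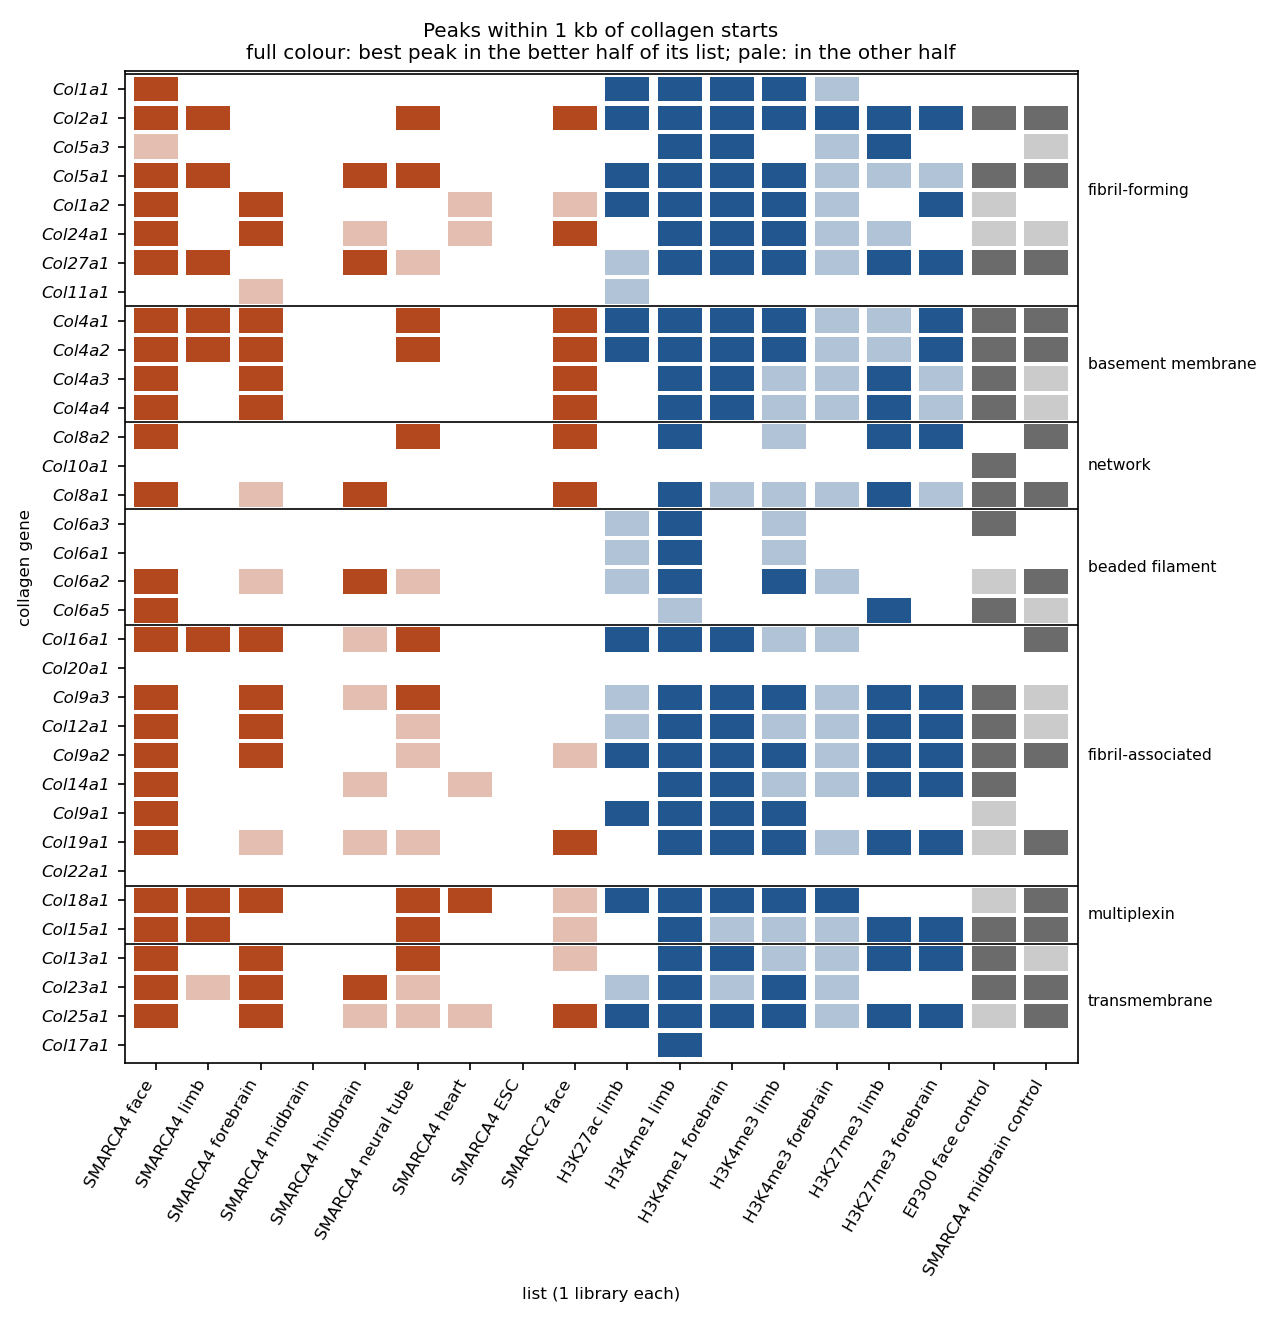
Peaks within 1 kb of the start of each of the 34 collagen genes (rows, grouped by structural family) in 18 lists (columns, 1 library each); a filled square is a peak, in full colour where the best one is in the better-ranked 50% of its list and pale otherwise, with FLAG lists in red, histone marks in blue and controls in grey. SMARCA4 face fills 27 rows and SMARCA4 limb 9, and 22 of the 24 squares of H3K4me3 forebrain are pale.

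The number of collagen genes with SMARCA4 in face and in no brain region depended on how peaks were counted. Within 100 kb, Col22a1 and Col6a5 had SMARCA4 in face and in none of forebrain, midbrain and hindbrain (2 of 34, 5.88%, against 13.9% of all genes). The count was 6 within 50 kb and 7 with each peak given to its nearest start point alone. It was 14 with peaks over control or input peaks left out, where the genes with a brain peak numbered 18 instead of 32. Shares over all genes were not computed under these settings, so 13.9% is not their background. No collagen gene had SMARCA4 in limb and in no brain list (against 4.04%). In the opposite direction, 15 had it in a brain list and not in limb (44.1%, against 24.2%). A brain list had a SMARCA4 peak within 100 kb of 32 collagen genes (94.1%, against 84.5%). Col22a1 codes for a fibril-associated chain of tissue junctions; it had 2 face peaks within 100 kb, of which 1 lay at the start of another gene and neither at its own, so its call is not a call at the gene's start.

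At the starts, 7 genes had SMARCA4 in face and in no brain list (20.6%, against 35.9% of all genes): the fibril-forming Col1a1, Col2a1 and Col5a3, the beaded filament chain Col6a5, the network chain Col8a2, the cartilage chain Col9a1 and the multiplexin Col15a1. Col2a1 and Col15a1 also had it in limb, and were the collagen genes with a limb peak and no brain peak (2, 5.88%, against 8.34%). A brain list and not limb held 14 (41.2%, against 21.6%), and any brain list 21 (61.8%, against 40.0%). These counts shift with the length of the lists. With the forebrain list shortened to the limb list's length, 15 collagen starts had a forebrain peak and 9 a limb peak. With every SMARCA4 list shortened to 1513 peaks, 6 had one in limb and 6 in forebrain. Shares over all genes were not computed for the shortened lists.

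Within the wider window, fewer collagen genes than genes in general had a peak in limb, neural tube, heart and ESC, and about as many in face. Face had a SMARCA4 peak within 100 kb of 33 collagen genes (97.1%, against 98.1%), with a median of 6 peaks per gene in both collagen genes and all genes. Limb had one at 17 (50.0%, against 64.4%), neural tube at 26 (76.5%, against 90.6%), heart at 22 (64.7%, against 74.9%) and ESC at 16 (47.1%, against 61.9%). Forebrain had one at 27 (79.4%, against 72.4%), midbrain at 8 (23.5%, against 20.2%) and hindbrain at 24 (70.6%, against 59.7%). SMARCC2 face had one at 28 (82.4%, against 75.0%). H3K4me3 peaks were also fewer around collagen genes, with a median of 2 in limb, against 4 over all genes, and 2 in forebrain, against 3. The part of this in the SMARCA4 shares was not tested. Of the 207 distinct face peaks in these surroundings, 27 lay at a collagen start, 42 at the start of another gene and 138 at no placed start (66.7%, against 66.8% of the whole face list). In limb, 11 of 28 lay at no placed start (39.3%, against 23.2%), and in heart 67 of 80 (83.8%, against 75.3%). Over all genes, the mean number of SMARCA4 peaks within 100 kb was 6.16 in face, 1.18 in limb and 1.58 in forebrain. It was 0.274 in midbrain, 0.961 in hindbrain, 2.94 in neural tube, 2.38 in heart and 1.12 in ESC. The counts of single genes below are to be read against these means, since genes in general have more face than brain peaks.

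**Figure D3:**
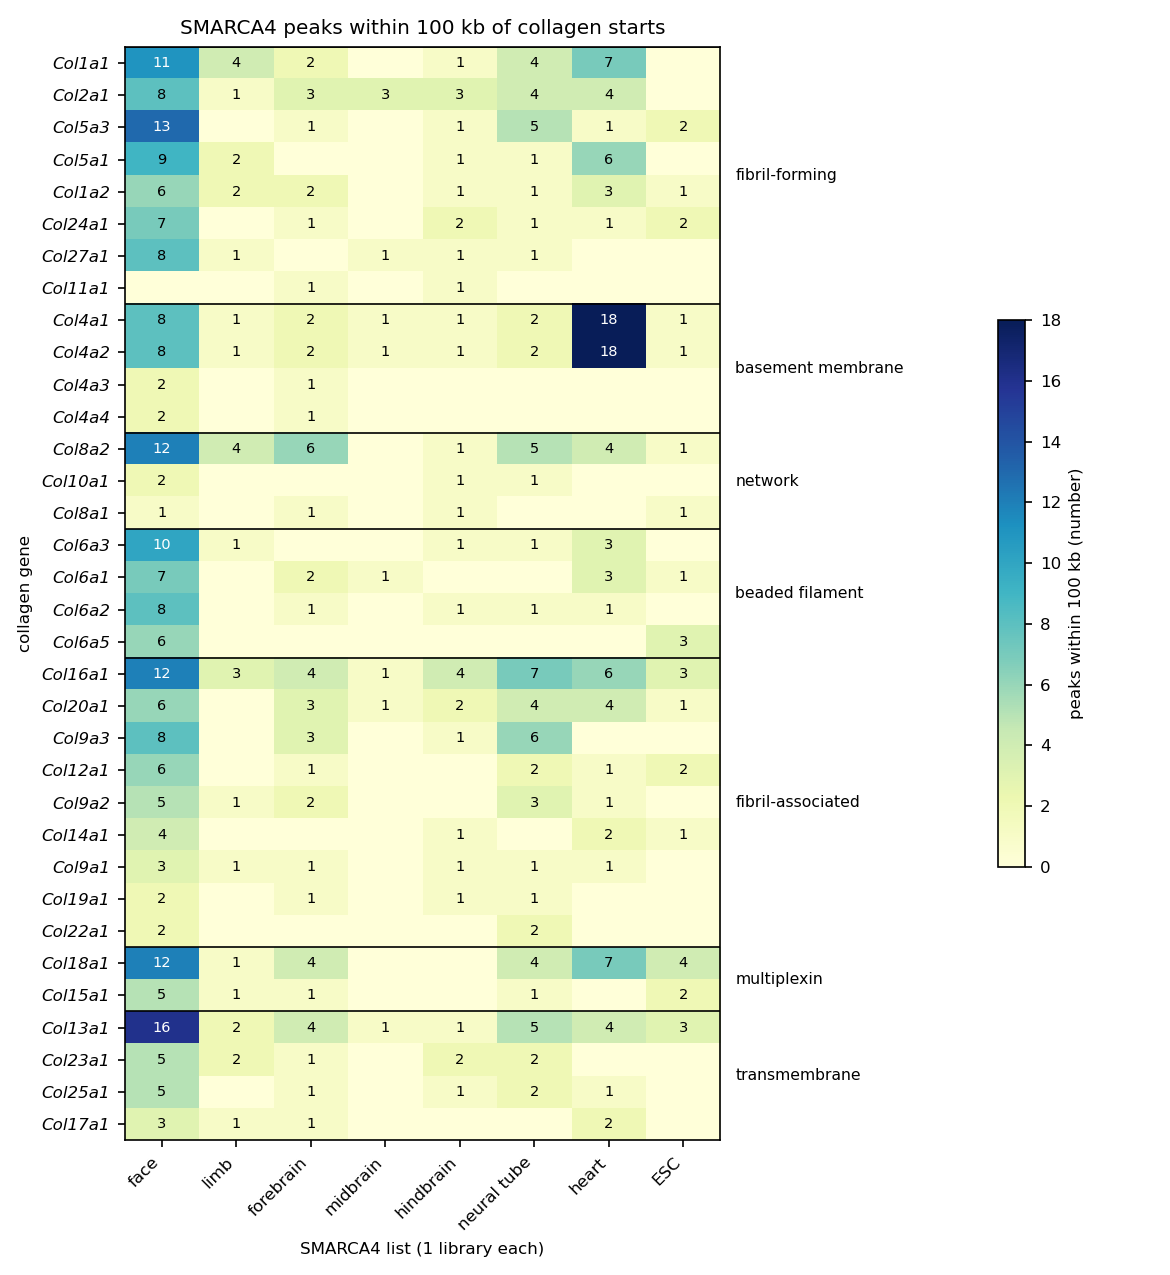
Number of SMARCA4 peaks within 100 kb of the start of each collagen gene (rows, grouped by structural family and ordered by their sum) in 8 lists (columns, 1 library each); empty cells are 0, and 9 genes with several start points have wider windows. Face holds the most peaks for most genes, with 16 at Col13a1, and heart has 18 at Col4a1 and Col4a2, which share a start region. Over all genes too, the mean is highest in face, at 6.16.

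Among the fibril-forming collagens, Col1a1 codes for the main chain of type I collagen of bone, skin and tendon; its start lies on chromosome 11 at 94797583 (mm9). Within 100 kb it had 11 SMARCA4 peaks in face and 4 in limb, against 2 in forebrain, 0 in midbrain and 1 in hindbrain, with 4 in neural tube, 7 in heart and 0 in ESC. One of the face peaks, 1.30 kb wide and at rank 3865, covered the start, and no limb or brain peak did. Of its 29 peaks summed over the lists, 8 lay at starts of other genes, among them Ppp1r9b and Samd14, and 20 at no placed start. One cluster of the last kind, on the lower-coordinate side of the start, at offsets of -54.7 to -53.1 kb, held peaks of face (in the best 0.296% of the list), limb, forebrain, neural tube and heart. No control list had a peak at the Col1a1 start. It carried H3K4me3 in limb (rank 43.4% of the list) and forebrain (80.5%), H3K27ac in limb, and no H3K27me3 in either tissue.

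Col1a2 codes for the partner chain of type I collagen (chromosome 6, 4455696). Within 100 kb it had 6 face and 2 limb peaks, against 2 in forebrain, 0 in midbrain and 1 in hindbrain, with 1 in neural tube, 3 in heart and 1 in ESC. At the start itself were face (rank 2.69% of the list), forebrain (23.2%) and heart (73.3%, 20 tags), but not limb. The start also lay under 1 control list. It was the only collagen start with H3K27me3 in forebrain and not in limb, a peak 0.608 kb wide, and it had H3K27ac in limb. Thus both chains of type I collagen had limb acetylation and no limb H3K27me3, and of the pair Col1a2 had SMARCA4 at the start in forebrain.

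Col2a1 codes for the main cartilage collagen (chromosome 15, 97835076). Within 100 kb it had 8 peaks in face and 1 in limb, against 3 each in forebrain, midbrain and hindbrain, with 4 in neural tube, 4 in heart and 0 in ESC. The start was covered by wide peaks of face (5.26 kb, rank 599), limb (4.80 kb) and neural tube (6.55 kb), and by SMARCC2 face (5.57 kb, 360 tags). It also lay under 2 control lists. The hindbrain, midbrain and heart peaks closest to the start were centred at offsets of -1.7 kb, -2.8 kb and -2.8 kb along the chromosome and ended outside the 1 kb window, so the absence of a brain call at this start rests on the window. The forebrain list had a peak at -13.0 kb, in the best 0.640% of that list, and face, midbrain and hindbrain had peaks at -12.0, -12.1 and -11.9 kb. The H3K27me3 peak at the start was 9.56 kb wide in limb and 0.455 kb wide in forebrain, and limb also had H3K27ac there. Forebrain H3K27me3 peaks were narrower in general: over all starts with one, the median widest was 4.05 kb in limb and 1.44 kb in forebrain.

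**Figure D4:**
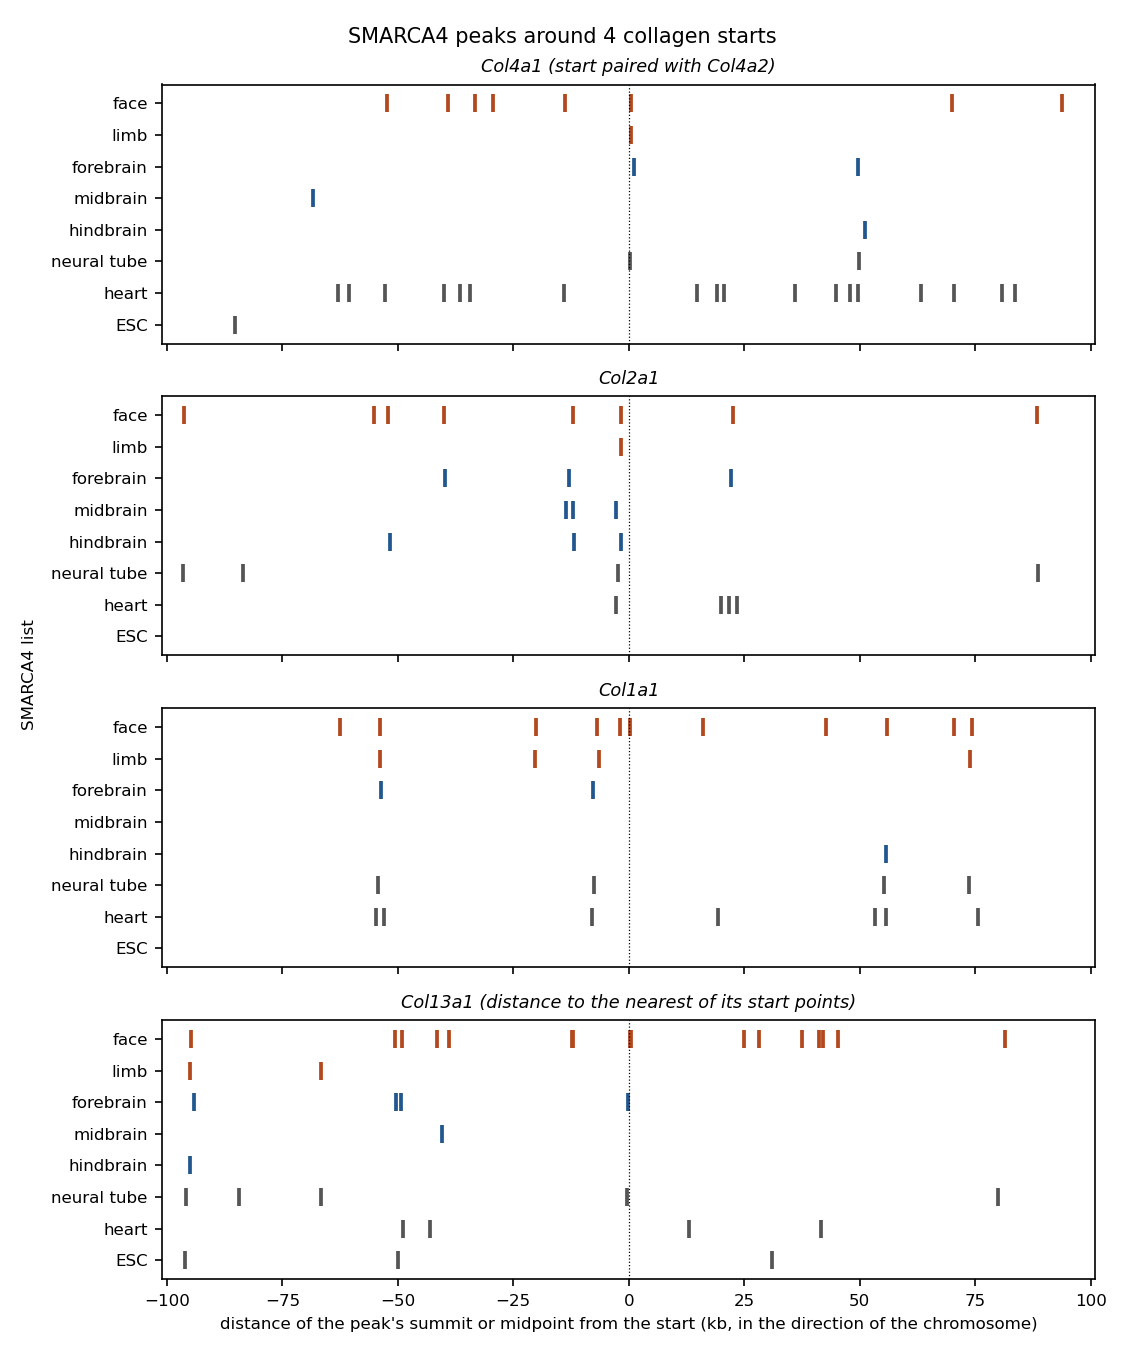
Positions of SMARCA4 peaks (ticks) by list (vertical axis; face and limb red, brain regions blue, others grey) around 4 collagen starts, as the distance of the summit or midpoint from the start in kb along the chromosome. Around Col4a1 the heart list has 18 ticks from -62.9 to 83.6 kb and none at 0, and around Col2a1 ticks of several lists gather between -13.7 and -11.9 kb.

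The remaining fibril-forming genes differed among themselves. Col5a1 and Col5a3 code for chains of type V collagen, which starts fibril assembly. Col5a1 had face, limb, hindbrain and neural tube SMARCA4 at its start, with limb at rank 331, and 9 face and 2 limb peaks within 100 kb, against 0 forebrain, 0 midbrain and 1 hindbrain. The Col5a1 start also lay under 2 control lists. Col5a3 had 13 face peaks and no limb peak within 100 kb, against 1 forebrain and 1 hindbrain peak, and at its start a face peak in the lower-ranked part of the list (56.9%). Col24a1 had face, forebrain, hindbrain and heart peaks at its start, and Col27a1 face, limb, hindbrain and neural tube. Col11a1, a chain of cartilage type XI collagen, had forebrain alone, at 75.8% of that list, with no H3K4me3 in either tissue. Limb had H3K27ac at this start, at 61.1% of that list. A hindbrain SMARCA4 peak at an offset of 1.3 kb lay outside the 1 kb window.

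The basement membrane chains Col4a1 and Col4a2 have start points 293 bp apart on chromosome 8 (11312730 and 11313023), so they share their peaks and count as 1 region. Their start had SMARCA4 in face (rank 0.880% of the list), limb (21.9%), forebrain (7.43%) and neural tube (2.88%). It also had SMARCC2 in face (198 tags) and EP300 in face (181 tags). These were the collagen genes with an EP300 face peak at the start (2, 5.88%, against 19.3% of all genes). The start also lay under 3 control lists, among them the control of EP300 face itself. The authors' false discovery rate had a median of 56.4% over the EP300 face list. It had H3K27ac and H3K4me3 in limb, with H3K4me3 in the best 5.55% of the list, and H3K27me3 peaks 1.18 kb wide in limb and 1.02 kb wide in forebrain.

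Heart held more SMARCA4 peaks around this pair than any other list. Within 100 kb there were 18 heart peaks, against 8 in face, 1 in limb, 2 in forebrain, 1 in midbrain, 1 in hindbrain, 2 in neural tube and 1 in ESC. Only 17 of all 16001 genes (0.106%) had 18 or more heart peaks within 100 kb; the bar of 18 was set after this value was seen. None of the 18 lay at a placed start of any gene, and 1 overlapped a control or input peak. They ran from -62.9 kb to 83.6 kb along the chromosome from the start and held 25 to 78 tags (median 31.5) at an authors' false discovery rate of 0.49% to 0.79%. Of the 18, 1 overlapped a face SMARCA4 peak and 5 a face SMARCC2 peak, while 8 overlapped limb H3K4me1 and 3 limb H3K27ac. The heart histone marks were not analysed here.

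Col4a3 and Col4a4, chains of the kidney and cochlear basement membranes, have start points 71 bp apart on chromosome 1 and likewise count as 1 region. It had 2 face peaks and 1 forebrain peak within 100 kb and none in the other 6 SMARCA4 lists. Face (rank 4.32% of the list), forebrain (15.6%) and SMARCC2 face covered the start, which also lay under 2 control lists.

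The network chains were uneven. Col8a2, a chain of the corneal Descemet membrane, had 12 face and 4 limb peaks within 100 kb, against 6 forebrain, 0 midbrain and 1 hindbrain. Of its 33 peaks summed over the lists, 15 lay at starts of other genes. Its start had SMARCA4 in face and neural tube. It had H3K27me3 8.24 kb wide in limb and 2.07 kb wide in forebrain, against medians of 4.05 kb and 1.44 kb over all starts with the mark. Its partner Col8a1 had 1 face peak and no limb peak, against 1 forebrain and 1 hindbrain peak, and Col10a1 of hypertrophic cartilage had 2 face peaks and no limb peak, against 1 hindbrain peak, with none at its start.

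The beaded filament genes Col6a1 and Col6a3 code for chains of the type VI collagen around muscle and other cells. At their starts no SMARCA4 list had a peak, and limb had both H3K27ac and H3K4me3 while forebrain had neither H3K4me3 nor H3K27me3. Within 100 kb Col6a1 had 7 face and 0 limb peaks, against 2 forebrain, 1 midbrain and 0 hindbrain, and Col6a3 had 10 face and 1 limb, against 0 forebrain, 0 midbrain and 1 hindbrain. Col6a2, whose start lies 102.7 kb from that of Col6a1, did have SMARCA4 at its start, in face, forebrain, hindbrain and neural tube. Col6a5 had face alone at its start, 6 face peaks within 100 kb and no limb or brain peak, and 3 ESC peaks.

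Col16a1, a fibril-associated chain, had 40 SMARCA4 peaks summed over the lists, of which 12 lay at starts of other genes. Its 3 start points span 49.7 kb, which widens its window, and around the point on which most peaks agree it had 28, fewer than the 34 of Col4a1. It had 12 face and 3 limb peaks, against 4 forebrain, 1 midbrain and 4 hindbrain, with 7 in neural tube, 6 in heart and 3 in ESC. Its start, whose promoter is shown above, was covered in face (rank 2635), limb (rank 576), forebrain (rank 2208), hindbrain (rank 4019) and neural tube (rank 3655). It had H3K27ac and H3K4me3 in limb and no H3K27me3 in either tissue. Over the 3 start points of Col16a1, 3 control lists had a peak.

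Among the other fibril-associated genes, Col20a1 had 6 face and 0 limb peaks, against 3 forebrain, 1 midbrain and 2 hindbrain, and none at its own start. Of its 21 peaks over the lists 18 lay at starts of other genes, all of the forebrain, midbrain and hindbrain ones among them. The 3 chains of type IX collagen, which coats cartilage fibrils, parted at the start. Col9a2 and Col9a3 had face and forebrain SMARCA4 together with H3K27me3 in both tissues, and Col9a1 had face alone, no H3K27me3, and H3K4me3 in limb only. Col12a1, Col14a1 and Col19a1 had SMARCA4 at the start in 3, 3 and 4 lists, each with H3K4me3 and H3K27me3 in both limb and forebrain.

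The multiplexins, basement membrane proteins whose ends release fragments such as endostatin, both had limb SMARCA4 at the start. Col18a1 had 12 face and 1 limb peaks within 100 kb, against 4 forebrain and 0 in midbrain and hindbrain, with 4 in neural tube, 7 in heart and 4 in ESC. Its upstream start had peaks in face (rank 1.89% of the list), limb (6.93%), forebrain (6.64%), neural tube (25.1%) and heart (36.4%, 55 tags). It had H3K27ac in limb and no H3K27me3, and it also lay under 4 control lists. Col15a1 had 5 face and 1 limb peak, against 1 forebrain peak within 100 kb, and H3K27me3 at the start in both tissues.

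Of the transmembrane collagens, Col13a1, found at cell adhesion sites, had 16 face and 2 limb peaks within 100 kb, against 4 forebrain, 1 midbrain and 1 hindbrain. Its 3 start points span 100.7 kb, and around the point on which most peaks agree it had 12 face and 2 limb peaks, against 4, 1 and 1. Of its 36 peaks over all SMARCA4 lists 27 lay at no placed start. Col23a1 and the neuronal Col25a1, also known from amyloid plaques, each had SMARCA4 at the start in 5 lists. Those of Col23a1 were face, limb, forebrain, hindbrain and neural tube, and those of Col25a1 face, forebrain, hindbrain, neural tube and heart, so limb was missing at Col25a1. Col17a1 had 3 face and 1 limb peak, against 1 forebrain peak, and none at its start.

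H3K27me3 was the mark in which collagen starts differed most from the rest. In limb 20 starts carried it (58.8%), against 29.1% of all genes, and in forebrain 18 (52.9%), against 18.9%. In 17 it was present in both tissues (50.0%, against 16.6%). It was in limb alone at Col24a1, Col5a3 and Col6a5 (3, 8.82%, against 12.4%) and in forebrain alone at Col1a2 (1, 2.94%, against 2.26%). The forebrain count is sensitive to how a peak is placed: with the midpoint of the peak in place of any base, 9 starts carried H3K27me3 in forebrain. The share over all genes was not computed for that placing.

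H3K4me3 lay at 27 collagen starts in limb (79.4%, against 74.7%) and at 24 in forebrain (70.6%, against 73.4%), close to the background. It was in limb and not in forebrain at Col6a1, Col6a3, Col8a2 and Col9a1 (4, 11.8%, against 2.70%), and in forebrain and not in limb at Col5a3 (1, 2.94%, against 1.43%). H3K4me3 together with H3K27me3, the pattern called bivalent, was at 18 starts in limb (52.9%, against 25.6%) and at 17 in forebrain (50.0%, against 16.8%). H3K4me1 lay at 30 in limb (88.2%, against 71.5%) and at 24 in forebrain (70.6%, against 61.3%), and limb H3K27ac at 19 (55.9%, against 55.1%).

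Although H3K4me3 was as frequent at collagen starts as elsewhere, its peaks there ranked low within their lists. In forebrain 2 of the 24, those of Col18a1 and Col2a1, were in the better-ranked 50% (8.33%, against 69.2% of all starts with a peak), with a median rank of 71.7% against 34.8%. In limb 15 of 27 were (55.6%, against 78.2%), with a median of 48.7% against 29.8%. H3K27me3 peaks showed no such offset: their median rank was 21.6% in limb (all starts 21.5%) and 25.8% in forebrain (27.1%). Limb H3K27ac stood at 38.7%, against 27.1%. Ranks of different lists are not on 1 scale, so limb and forebrain are each read against all starts in the same list.

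**Figure D5:**
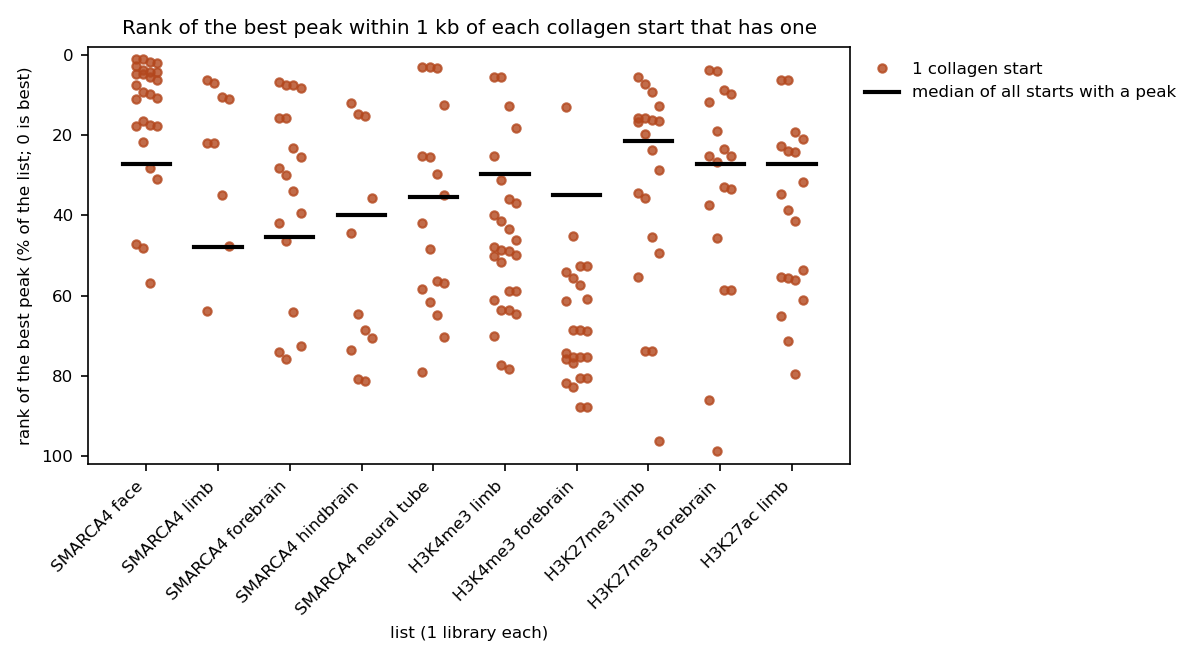
Rank of the best peak within 1 kb of each collagen start that has one (points; percent of the list, 0 is best and on top) in 10 lists (horizontal axis, 1 library each), with the median over all starts with a peak as a bar. Most SMARCA4 face points lie above their bar of 27.2%, and all but 1 of the 24 H3K4me3 forebrain points lie below their bar of 34.8%.

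SMARCA4 at collagen starts was also read within classes of the same marks. Among starts with H3K4me3 and H3K27me3 in forebrain, 12 of 17 collagen starts had forebrain SMARCA4 (70.6%), against 45.8% of all 2691 genes of that class. Among those with H3K4me3 alone it was 5 of 7 (71.4%), against 38.1% of 9051. In limb, 6 of 18 collagen starts with both marks had limb SMARCA4 (33.3%), against 38.5% of 4094, and 9 of 18 had H3K27ac (50.0%), against 35.9%. Of the 5 collagen starts with neither mark in limb, none had SMARCA4 in face (against 13.5% of the 3500 genes of that class) or limb (against 2.91%), and 1, Col11a1, had it in forebrain (against 4.69%). Counts this small do not differ from the background in a readable way.

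NCOA2 in hindbrain and EP300 in ESC lay at a smaller share of collagen starts than of all starts, on counts too small to read as a difference. NCOA2 in hindbrain lay at 6 (17.6%, against 21.2%), among them Col27a1, Col2a1, Col5a1 and Col8a2. EP300 in ESC lay at 8 (23.5%, against 34.9%), among them Col12a1, Col13a1 and Col25a1. SMARCC2 and NCOA1 in hindbrain lay at none, against 0.556% and 5.10% of all genes, so 0 of 34 is near the background.

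Genes that act on collagen were listed by role, and 45 of 63 could be placed. At their starts SMARCA4 stood in face at 40 (88.9%, against 74.1% of all genes), in limb at 23 (51.1%, against 26.8%) and in forebrain at 22 (48.9%, against 30.8%). The other SMARCA4 lists were above all genes too: midbrain 13.3% against 2.18%, hindbrain 22.2% against 18.3%, and neural tube 71.1% against 54.8%. Heart had 31.1% against 21.4%, and ESC 8.89% against 6.77%. H3K4me3 stood at 91.1% in limb (against 74.7%) and 84.4% in forebrain (against 73.4%). A share above all genes was thus not particular to limb. H3K27me3 stood in limb at 20 (44.4%, against 29.1%) and in forebrain at 18 (40.0%, against 18.9%). The limb SMARCA4 share of the collagen genes themselves was 26.5%. By role, limb SMARCA4 lay at 6 of 11 starts of modifying enzymes and chaperones, 6 of 12 of processing and cross-linking enzymes, 2 of 5 of receptors, 1 of 5 of fibril partners, 4 of 6 of genes of matrix degradation (proteases, their inhibitors Timp2 and Timp3, and the uptake receptor Mrc2) and 4 of 6 of cartilage, bone and tendon factors, all to be read against the 26.8% of all genes. With 5 to 12 genes a role, these counts do not separate the roles.

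The examples with the most SMARCA4 peaks in each role follow by their counts in face and limb, against forebrain. P4hb, a prolyl hydroxylase subunit, had 15 and 7, against 3. Serpinh1, the collagen chaperone, had 14 and 2, against 3. Neither had H3K27me3 at the start. Loxl1, a cross-linking enzyme, had 12 and 1, against 2, and Pcolce, which enhances procollagen cleavage, had 13 and 3, against 2. Among receptors, the kinase Ddr1 had 7 and 1, against 1, and the integrin chain Itga11 had 8 and 2, against 0; among fibril partners, fibromodulin (Fmod) had 9 and 2, against 1, and tenascin X (Tnxb) 7 and 2, against 4. Mmp9 had 8 and 2, against 5, and Mmp14, both matrix proteases, had 10 and 3, against 0. The tendon factor Scx had 8 and 5, against 2, and the cartilage factor Sox6 had 9 and 1, against 2. In each of these 12 genes face held more peaks than forebrain, as it did over all genes, where the mean was 6.16 in face and 1.58 in forebrain.

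Col4a3bp, which the symbol rule takes although its product is no collagen, had 4 face peaks and 1 limb peak within 100 kb, against 0 in forebrain, 0 in midbrain and 1 in hindbrain, with 1 each in neural tube and heart. Its start carried SMARCA4 in 5 lists and H3K4me3 in both tissues without H3K27me3.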

How the data were processed

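Peak lists of FLAG-tagged SMARCA4, SMARCC2, EP300, NCOA1 and NCOA2, of their input controls and of histone marks with their inputs were used as deposited. The submitters' processing notes name BWA and the mm9 build; the peak caller is not given in the sources used here. Of the 30 lists, 16 are tables that give, per the file headers, tag counts per peak, a score of -10 times log10 of the peak's p-value, in some a false discovery rate in percent, and the nearest gene with its distance. The other 14 deposited lists hold positions and ranks, rank 1 being the best. Tags and scores are the authors' values and were used only to describe peaks within a list; total read depth is not given, so no floor or interval was computed.

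A gene's start point is the position on which at least 2 table peaks agree, from the summit and the unsigned distance; a gene may have several. A peak counts where any base lies within 1 kb or 100 kb of a point. Genes that are nearest to fewer than 2 peaks have no point, and this holds for all genes as for the collagens. With 1 library per condition no test was run: counts over the collagen genes stand beside the same counts over all placed genes, members included. Paired starts are counted for each gene. Brain means forebrain, midbrain and hindbrain. Every member is named or counted; genes acting on collagen were listed by role, and those named have the most SMARCA4 peaks in their role, up to 2 each. The members and lists were chosen with earlier results of these data known. The counting was tested on simulated data and against a direct recount with Python 3.11.15 and numpy 2.4.6; figures were drawn with matplotlib 3.10.9. Alternatives changed the windows, the placing of peaks, the length of lists and the treatment of peaks over control peaks. Promoters come from RefSeq (GRCm38.p6), a later build than that of the peaks, and are used for their letters only; those of paired starts, whose bases run into the partner gene, are not printed.

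The labels conflict in places. For SMARCA4 hindbrain the tissue field reads forebrain, the genotype tag of every FLAG sample names the SMARCA4 allele, and heart and hindbrain are the tissues in the histone protocol; samples were grouped by their titles.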

Additional observations from a re-analysis of the deposited data

How the results depend on the processing

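Of 115 values of 12 results under 15 alternatives, 90 were within 1.5 times the reported value. The exceptions follow. With surroundings of 50 kb, SMARCA4 in face and in no brain list was at 6 collagen genes and in limb and in no brain list at 1, and the median face count was 3.5. With a peak placed by its summit or midpoint, forebrain H3K27me3 was at 9 starts. With SMARCA4 lists shortened to 1513 peaks, SMARCA4 was at 12 starts in any list and at 6 in forebrain, at 1 gene in limb and in no brain list and at 20 in a brain list within 100 kb, with a median face count of 0. With the better-ranked 50% of every list these were 5 for face and no brain, 2 for limb and no brain, a median of 3, and 15 limb and 2 forebrain starts with H3K4me3. With SMARCA4 peaks over control or input peaks left out, starts fell to 8 in any list, 0 in limb and 1 in forebrain, and within 100 kb the counts were 14 for face and no brain, 3 for limb and no brain and 18 for a brain list, with a median of 3. With each peak given to its nearest start point only, they were 7, 1 and a median of 2. With neural tube counted as brain, face and no brain held 1 gene. Thus the contrast of face with brain depends on these choices, and beyond what each alternative's construction shows, the cause was not tested. Apart from counts given above with a share over all genes, these values were computed for collagen genes only. Without that share, a moved count does not show a change particular to collagen genes. No paired analysis was possible because each condition has 1 library and no test was run.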

Other observations

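Limb H3K4me1 peaks were many within 100 kb of some transmembrane and fibril-associated collagen genes. Col13a1 had 30 in limb and 8 in forebrain, Col16a1 had 25 in limb and 18 in forebrain, and Col25a1 had 25 in limb and 4 in forebrain. These are the 3 collagen genes with 3 start points, which span 100.7, 49.7 and 293.9 kb and widen their windows. Around the point on which most peaks agree, Col13a1 had 20 in limb and 8 in forebrain, Col16a1 had 23 and 15, and Col25a1 had 8 and 2. The median over the collagen genes was 9 in limb, against 8 over all genes, and 3.5 in forebrain, against 5. The limb list has 58181 peaks and the forebrain list 34848, so the 2 tissues are each read against all genes. At the Col9a1 start the input of the limb acetylation library also had a peak, 0.176 kb wide.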
